A study of Mus musculus with 24 samples.

Results

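The 40 genes described here encode proteins that carry glucose into the cell, break it down to pyruvate and lactate, and store and release it as glycogen. Also among them are kinases that restrain the oxidation of pyruvate in the mitochondria. The 40 genes were chosen by gene symbol, as the muscle-type and the more widely expressed isoforms of each step, from the 47967 genes of a raw count table. All 40 are in the table and all 40 passed the filter on low counts. RNA sequencing read them out in MEFs, fibroblasts from C57BL/6 mouse embryos of embryonic day 13.5 to 14.5. Retroviral cocktails were used to push these cells towards heart muscle. Cells were given AGHMT, GHMT, GMT or a mock treatment, and RNA was taken at day 7 or day 2, which makes 8 groups of 3 libraries and 24 libraries in all. By their letters the cocktails are usually read as Gata4, Mef2c and Tbx5 (GMT), the same with Hand2 (GHMT), and GHMT with Akt1, a kinase that relays insulin and growth factor signals (AGHMT).

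Some features of the design bear on genes of glucose use. The protocol describes an induction medium with insulin and sodium pyruvate for infected cells, against a plain growth medium before the experiment. The labels state neither whether mock cells were moved to that medium nor whether they received an empty virus, so the medium and the cocktail cannot be told apart. The cultures are mixtures of cells that did and did not take up or respond to the virus. In such bulk RNA a change in the number of cells of a type cannot be told apart from a change in RNA per cell. Nothing in the labels says that replicates came from separate cultures. The p-values therefore rest on library-to-library spread alone, part or all of it possibly technical.

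Glycolysis splits glucose in the cytosol to pyruvate, and most of its steps can be run by several isoforms made from separate genes, of which striated muscle uses a particular set. Muscle also keeps glycogen as a local fuel, which glycogen phosphorylase releases when phosphorylase kinase switches it on in response to calcium. The heart can take up lactate as well as release it. Pyruvate dehydrogenase kinases (PDKs) hold back the oxidation of pyruvate by pyruvate dehydrogenase in the mitochondria when fat is burnt instead.

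Libraries held 29345957 to 37495178 counted reads, and the lowest member count in any library was 6. Levels are CPM, read counts scaled to a common library total with the TMM method. All log2 fold changes carry a standard error, and a gene was called where the adjusted p of edgeR's quasi-likelihood test over 17576 genes was under 0.05. At day 7 the summed level of 12 heart muscle markers ran from 20688 to 21759 CPM in AGHMT, 13627 to 14667 CPM in GHMT and 10149 to 10650 CPM in GMT, against 20.2 to 24.2 CPM in mock. The sum does not speak for every marker. Tnnt2 alone averaged 9559 CPM in GHMT and 5263 CPM in GMT. Nkx2-5 averaged 0.077 CPM in GHMT and 0.076 CPM in GMT, and Myl2 0.339 and 0.383 CPM. The 12 fibroblast markers were all detected in mock and 12 of 12 fell in each cocktail at day 7. Of the skeletal muscle markers, Myod1 and Myog, which set skeletal muscle identity, stayed under 1 CPM on average in every group, and Myf5 was at 0 counts throughout. The 13 skeletal muscle markers together summed to 927 to 989 CPM in AGHMT at day 7, against 25.0 to 28.4 CPM in mock. In GHMT that sum was 64.0 to 73.2 CPM and in GMT 76.2 to 79.5 CPM. Replicates 3 of AGHMT day 2, 2 of GHMT day 7 and 3 of GHMT day 2 stood apart from their groups in a chi-square comparison of counts. Pairs that held 1 of these libraries gave 7.59 to 46.39 per degree of freedom. Mock pairs reached 7.562 at day 7 and 6.363 at day 2, so the mock groups were not uniform either. Results were also computed without the 3 libraries that stood apart.

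At day 7, 34 of the 40 genes were higher and 5 lower in AGHMT than in mock, where 38.6% of all tested genes were called higher and 38.1% lower. The median log2 fold change of the 40 was 1.41, beside -0.0033 over all tested genes. Of the 40, 27 were called at 2-fold higher or more, against 18.2% of all genes. In GHMT 32 were higher and 3 lower than in mock (background 36.3% higher and 35.6% lower). The median was 0.62, with 13 at 2-fold higher or more (background 15.6%). In GMT 29 were higher and 6 lower (background 37.1% and 36.0%). The median was 0.50, with 15 at 2-fold higher or more (background 15.7%). These 3 comparisons share the mock libraries. Of the 40, 27 were called higher in all 3 cocktails at day 7, beside 26.5% of all tested genes. They include at least 1 gene of nearly every enzymatic step, while Aldoc, Eno2 and Pfkfb1 were called lower in all 3 (background 27.2%).

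The picture at day 2 was more even. In AGHMT 26 of 40 were higher and 8 lower than in mock (background 38.0% and 37.4%), with a median log2 fold change of 0.45. GHMT had 19 higher and 17 lower (background 34.9% and 33.3%) and a median of 0.09. GMT had 20 higher and 18 lower (background 33.9% and 33.1%) and a median of 0.10. In all 6 comparisons with mock, 16 genes were called higher, beside 16.4% of all tested genes: Eno3, Gbe1, Hk1, Ldhb, Pdk2, Pdk4, Pfkfb3, Pfkm, Pfkp, Pgam1, Pgam2, Phka1, Phkg1, Ppp1r3c, Pygb and Pygm.

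**Figure D1:**
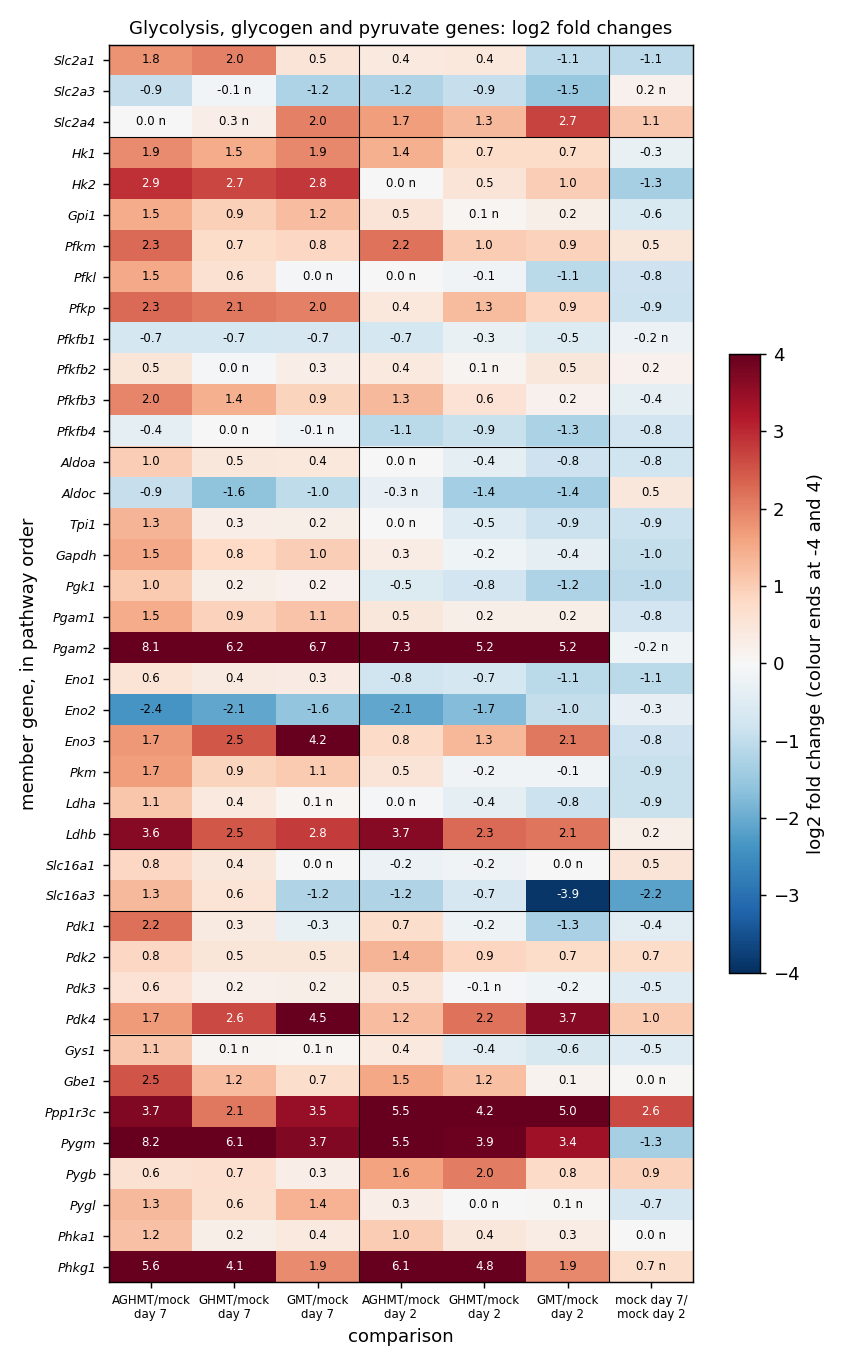
Heat map of log2 fold changes of the 40 genes (rows, in pathway order) in 7 comparisons (columns). Red is higher and blue lower in the group named first, and colours end at -4 and 4. An n marks values that did not pass an adjusted p of 0.05. Pgam2, Pygm, Phkg1, Ppp1r3c and Ldhb are red in every cocktail at both days. By contrast, enzymes such as Eno1 and Pgk1 are red at day 7 and blue at day 2, and Eno2 is blue in every column.

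The promoters of 5 muscle-type genes with large changes are shown first, as examples of the sequence around their start sites. Pgam2 encodes the muscle form of phosphoglycerate mutase, which moves a phosphate within the 3-carbon intermediate ahead of enolase. Pygm is muscle glycogen phosphorylase, and Phkg1 is the catalytic subunit of muscle phosphorylase kinase. Eno3 is the muscle enolase and Pdk4 the PDK that rises in muscle and heart with fasting. Each sequence is from RefSeq on GRCm38.p6 and runs 5′ to 3′ on the strand of the gene, from 250 bases before to 50 after an annotated start. They lie at chr11:5803747-5804046 (minus strand) for Pgam2, chr19:6384158-6384457 (plus strand) for Pygm, chr5:129879039-129879338 (minus strand) for Phkg1, chr11:70656926-70657225 (plus strand) for Eno3 and chr6:5496229-5496528 (minus strand) for Pdk4. Capitals mark matches, on either strand, to a MEF2 motif, the GATA letters AGATAA or TGATAA, the T-box letters AGGTGT, or the hypoxia element letters ACGTG or GCGTG.
Pgam2: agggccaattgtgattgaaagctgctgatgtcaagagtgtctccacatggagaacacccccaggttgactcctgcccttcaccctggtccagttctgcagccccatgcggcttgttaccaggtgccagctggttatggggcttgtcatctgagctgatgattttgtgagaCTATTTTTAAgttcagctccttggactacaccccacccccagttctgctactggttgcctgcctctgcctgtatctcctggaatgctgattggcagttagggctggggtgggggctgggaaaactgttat
Pygm: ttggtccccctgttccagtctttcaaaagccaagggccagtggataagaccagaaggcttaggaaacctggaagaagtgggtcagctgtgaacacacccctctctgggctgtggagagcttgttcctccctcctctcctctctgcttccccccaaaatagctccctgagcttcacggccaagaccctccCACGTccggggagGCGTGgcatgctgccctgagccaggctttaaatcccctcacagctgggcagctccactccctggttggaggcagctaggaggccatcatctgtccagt
Phkg1: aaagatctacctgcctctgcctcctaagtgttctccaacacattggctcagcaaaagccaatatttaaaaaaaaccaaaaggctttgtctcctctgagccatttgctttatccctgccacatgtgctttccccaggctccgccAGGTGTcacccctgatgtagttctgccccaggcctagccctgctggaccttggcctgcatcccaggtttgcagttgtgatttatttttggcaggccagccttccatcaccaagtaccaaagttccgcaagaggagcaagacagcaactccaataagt
Eno3: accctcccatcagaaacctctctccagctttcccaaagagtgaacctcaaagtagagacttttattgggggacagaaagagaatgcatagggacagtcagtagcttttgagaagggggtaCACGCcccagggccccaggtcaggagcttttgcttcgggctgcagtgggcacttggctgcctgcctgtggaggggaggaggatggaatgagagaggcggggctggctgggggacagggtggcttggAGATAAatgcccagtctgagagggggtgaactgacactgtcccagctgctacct
Pdk4: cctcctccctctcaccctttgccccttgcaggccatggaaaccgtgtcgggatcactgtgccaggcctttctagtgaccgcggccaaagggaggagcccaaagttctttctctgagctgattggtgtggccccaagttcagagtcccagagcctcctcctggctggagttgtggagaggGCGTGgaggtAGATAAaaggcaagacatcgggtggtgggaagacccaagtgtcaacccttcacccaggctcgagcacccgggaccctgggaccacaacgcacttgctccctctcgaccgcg

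The Pgam2 promoter held a MEF2 match from base -80 to -71. This motif was found in 1.86% of 32851 promoters in the same table. Among the 38 members with a promoter there, only Pgam2 and Pfkfb1 held it. Phkg1 held the T-box letters, which 13.7% of all promoters hold. Eno3 and Pdk4 each held AGATAA, a form of the GATA letters found in 18.6% of all promoters, and a hypoxia element, found in 43.8%. Pygm held only hypoxia elements of the motifs searched. The E-box CACGTG was in none of the 5, and in 7.15% of all promoters. Such matches describe the letters of the window and say nothing about binding.

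Pgam2 was under 2 CPM in mock cells and abundant in AGHMT. At day 7 it had 465, 486 and 463 CPM in AGHMT, 124, 137 and 122 in GHMT, 174, 184 and 176 in GMT, and 1.68, 1.84 and 1.62 CPM in mock. Pgam2 at day 2 had 287, 275 and 372 CPM in AGHMT, 72.3, 66.7 and 70.03 in GHMT, 71.3, 71.1 and 68.1 in GMT, and 1.87, 1.98 and 1.97 CPM in mock. The groups did not overlap at day 7, with AGHMT highest and mock far below, and at day 2 GHMT and GMT overlapped. For Pgam2 the log2 fold change was 8.10 ± 0.11 in AGHMT, 6.22 ± 0.11 in GHMT and 6.70 ± 0.11 in GMT (largest adjusted p 2.17e-24) at day 7. For Pgam2 at day 2 it was 7.32 ± 0.11 in AGHMT, 5.16 ± 0.11 in GHMT and 5.17 ± 0.11 in GMT (largest adjusted p 1.07e-22). Pgam1, the widely expressed mutase, had 201, 207 and 200.2 CPM in AGHMT, 139, 136 and 139 in GHMT, 162, 161 and 158 in GMT, and 75.7, 70.7 and 73.1 CPM in mock at day 7, so that all cocktails lay above mock. Its change at day 7, 1.47 ± 0.04 in AGHMT, 0.92 ± 0.04 in GHMT and 1.13 ± 0.04 in GMT (largest adjusted p 6.39e-16), was far smaller than that of Pgam2. Per kilobase of exon, the mean level of Pgam2 was 561 CPM in AGHMT and 2.04 CPM in mock. That of Pgam1 was 102 CPM in AGHMT and 36.9 CPM in mock.

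Glycogen phosphorylase showed a graded change across the cocktails. Pygm had 165, 169.7 and 164 CPM in AGHMT, 39.8, 36.5 and 33.9 in GHMT, 6.32, 7.2 and 8.11 in GMT, and 0.473, 0.603 and 0.571 CPM in mock at day 7, in a strict order with no overlap. Pygm at day 2 had 62.2, 59.5 and 63.02 CPM in AGHMT, 21.7, 22.4 and 19.8 in GHMT, 14.3, 14.9 and 14.5 in GMT, and 1.43, 1.54 and 1.17 CPM in mock, in the same order. For Pygm the log2 fold change was 8.23 ± 0.11 in AGHMT, 6.06 ± 0.11 in GHMT and 3.71 ± 0.14 in GMT (largest adjusted p 1.21e-17) at day 7. For Pygm at day 2 it was 5.47 ± 0.09 in AGHMT, 3.94 ± 0.10 in GHMT and 3.39 ± 0.10 in GMT (largest adjusted p 1.89e-19). In AGHMT and GHMT the difference from mock was larger at day 7 than at day 2, by 2.76 ± 0.21 and 2.12 ± 0.21 (adjusted p 3.19e-11 and 5.80e-09). In GMT the change between the days was 0.32 ± 0.22 (adjusted p 0.247). Mock cells themselves had less Pygm at day 7 than at day 2 (-1.33 ± 0.20, adjusted p 3.98e-06).

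The other phosphorylases moved less. Pygb, the brain-type form that was the main phosphorylase of mock cells, had 501, 503 and 463 CPM in AGHMT, 526, 509 and 489 in GHMT, 385, 392 and 383 in GMT, and 329, 321 and 306 CPM in mock at day 7. AGHMT and GHMT overlapped, GMT lay below them and mock was lowest. For Pygb the log2 fold change was 0.62 ± 0.04 in AGHMT, 0.67 ± 0.04 in GHMT and 0.28 ± 0.04 in GMT (largest adjusted p 1.91e-06) at day 7. For Pygb at day 2 it was larger, at 1.62 ± 0.04 in AGHMT, 2.04 ± 0.04 in GHMT and 0.75 ± 0.04 in GMT (largest adjusted p 4.63e-14). In GHMT and AGHMT that day difference was -1.37 ± 0.06 and -1.0 ± 0.06 (adjusted p 1.53e-15 and 5.00e-13). Mock cells themselves averaged 318 CPM of Pygb at day 7 and 168 CPM at day 2. Pygl, the liver form, had 16.8, 17.2 and 14.5 CPM in AGHMT, 9.58, 10.4 and 10.2 in GHMT, 15.8, 17.4 and 17.6 in GMT, and 6.15, 6.85 and 6.5 CPM in mock at day 7. Every cocktail lay above mock and GMT overlapped AGHMT. The Pygl change was 1.31 ± 0.08 in AGHMT, 0.63 ± 0.09 in GHMT and 1.38 ± 0.08 in GMT (largest adjusted p 5.00e-07) at day 7. At day 2 it passed in AGHMT alone of the cocktails, at 0.26 ± 0.08 (adjusted p 0.00418). The values of -0.01 ± 0.08 in GHMT and 0.06 ± 0.08 in GMT did not pass.

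Phosphorylase kinase also rose. Phkg1 had 21.7, 25.1 and 25.3 CPM in AGHMT, 9.39, 8.13 and 7.15 in GHMT, 1.72, 1.63 and 2.07 in GMT, and 0.502, 0.603 and 0.349 CPM in mock at day 7. Phkg1 at day 2 had 20.6, 20.6 and 20.8 CPM in AGHMT, 8.96, 7.72 and 8.0 in GHMT, 0.853, 1.33 and 1.22 in GMT, and 0.204, 0.162 and 0.539 CPM in mock, where the mock values rest on few reads. AGHMT was highest and GHMT next at both days, with no overlap among the 4 groups of a day. For Phkg1 the log2 fold change was 5.61 ± 0.17 in AGHMT, 4.07 ± 0.20 in GHMT and 1.89 ± 0.26 in GMT (largest adjusted p 4.40e-07) at day 7. For Phkg1 at day 2 it was 6.11 ± 0.19 in AGHMT, 4.78 ± 0.21 in GHMT and 1.91 ± 0.31 in GMT (largest adjusted p 8.38e-06). Phkg1 shares 630 exonic bases with Sumf2 on the opposite strand. The strand setting of the counting is not given in the sources used here, so part of its count may belong to Sumf2. Phka1, the regulatory subunit of muscle phosphorylase kinase, had 51.1, 47.7 and 49.5 CPM in AGHMT, 26.98, 23.7 and 27.3 in GHMT, 29.5, 28.5 and 28.9 in GMT, and 21.5, 22.1 and 22.7 CPM in mock at day 7. Again AGHMT lay apart from and above the rest. The Phka1 change was 1.16 ± 0.06 in AGHMT, 0.23 ± 0.06 in GHMT and 0.39 ± 0.06 in GMT (largest adjusted p 0.00141) at day 7. For Phka1 at day 2 it was 1.02 ± 0.06 in AGHMT, 0.44 ± 0.06 in GHMT and 0.31 ± 0.06 in GMT (largest adjusted p 5.86e-05).

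**Figure D2:**
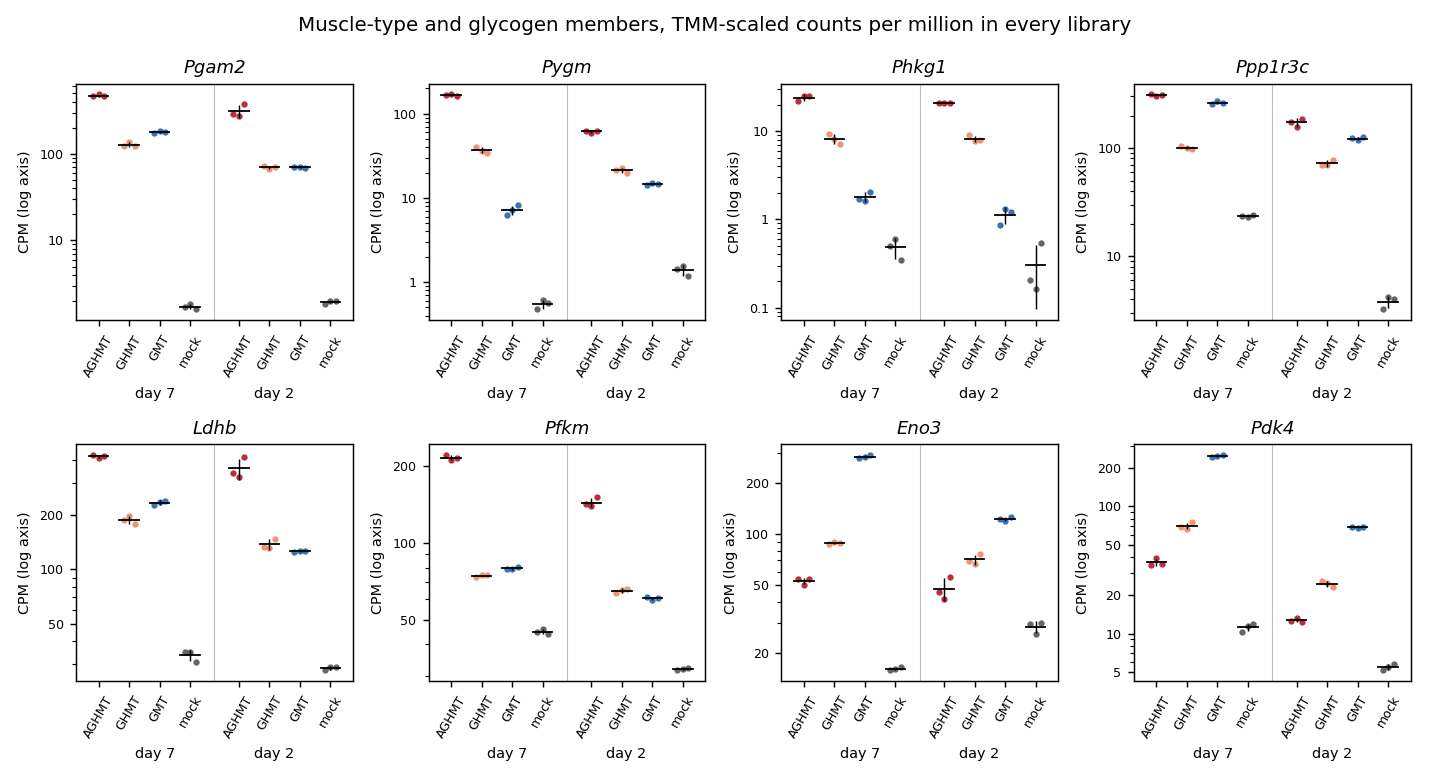
Levels of 8 genes (muscle-type isoforms, glycogen genes and the heart subunit gene Ldhb) in every library, in TMM-scaled CPM on a log axis. Shown are points for the 3 libraries of a group, a line at the mean and a bar of 1 SD. Pgam2, Pygm, Phkg1, Ldhb and Pfkm were highest in AGHMT and lowest in mock at both days, and Eno3 and Pdk4 were highest in GMT at both days.

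Glycogen synthesis was led by Ppp1r3c, a targeting subunit that brings a phosphatase to glycogen and so favours synthesis. At day 7 it had 314, 303 and 308 CPM in AGHMT, 104, 99.7 and 98.7 in GHMT, 254, 271 and 264 in GMT, and 23.6, 23.04 and 23.9 CPM in mock. Ppp1r3c at day 2 had 175, 157 and 186 CPM in AGHMT, 69.9, 69.03 and 77.6 in GHMT, 124, 118 and 126 in GMT, and 3.21, 4.14 and 4.01 CPM in mock. The 4 groups stood apart at both days, in the order AGHMT, GMT, GHMT and mock. For Ppp1r3c the log2 fold change was 3.71 ± 0.07 in AGHMT, 2.10 ± 0.06 in GHMT and 3.48 ± 0.06 in GMT (largest adjusted p 7.81e-20) at day 7. For Ppp1r3c at day 2 it was 5.51 ± 0.08 in AGHMT, 4.25 ± 0.08 in GHMT and 5.01 ± 0.08 in GMT (largest adjusted p 6.53e-24). It was thus smaller at day 7, with a difference of day 7 minus day 2 of -1.80 ± 0.10 in AGHMT, -2.15 ± 0.10 in GHMT and -1.53 ± 0.10 in GMT (largest adjusted p 5.81e-12). Mock cells themselves had more of it at day 7 than at day 2 (2.63 ± 0.08, adjusted p 2.43e-18).

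Gbe1, the branching enzyme that adds side chains to glycogen, had 70.2, 67.7 and 65.2 CPM in AGHMT, 30.1, 26.9 and 26.9 in GHMT, 19.3, 18.9 and 20.5 in GMT, and 11.7, 12.4 and 11.6 CPM in mock at day 7. The groups stood in that order with no overlap. For Gbe1 the log2 fold change was 2.51 ± 0.05 in AGHMT, 1.23 ± 0.06 in GHMT and 0.71 ± 0.06 in GMT (largest adjusted p 2.41e-11) at day 7. For Gbe1 at day 2 it was 1.55 ± 0.05 in AGHMT, 1.21 ± 0.06 in GHMT and 0.14 ± 0.06 in GMT (largest adjusted p 0.0395). The small GMT value at day 2 did not pass under 6 alternatives. Among them were leaving out mock day 2 replicate 2 (log2 0.11, adjusted p 0.159) or mock day 2 replicate 3 (0.15, 0.0531). The others that leave out a library were without GMT day 2 replicate 2 (0.13, 0.0980) or without GMT day 2 replicate 3 (0.14, 0.0749). Gys1, the glycogen synthase of muscle and most other tissues, had 107, 105 and 104 CPM in AGHMT, 53.4, 52.9 and 56.8 in GHMT, 52.7, 53.2 and 53.2 in GMT, and 54.1, 50.5 and 45.9 CPM in mock at day 7. Only the AGHMT libraries lay apart, and the other 3 groups overlapped from one to the next. Gys1 changed by 1.06 ± 0.05 in AGHMT, 0.12 ± 0.05 in GHMT and 0.08 ± 0.05 in GMT (adjusted p 1.03e-15, 0.0504 and 0.177) at day 7. Gys1 at day 2 was higher in AGHMT (0.38 ± 0.05, adjusted p 2.18e-07). It was lower in GHMT (-0.41 ± 0.05, adjusted p 1.19e-07) and GMT (-0.64 ± 0.05, adjusted p 5.06e-11). Without mock day 7 replicate 1 the day 7 values passed in GHMT (0.17, adjusted p 0.00832) and GMT (0.13, adjusted p 0.0345). The GHMT value also passed without GHMT day 7 replicate 2 (0.14, adjusted p 0.0435).

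Lactate dehydrogenase mRNA shifted towards its heart subunit. Ldhb, whose product favours the use of lactate, had 425, 412 and 418 CPM in AGHMT, 187, 197 and 178 in GHMT, 226, 236 and 238 in GMT, and 34.8, 34.9 and 30.9 CPM in mock at day 7. Ldhb at day 2 had 341, 324 and 414 CPM in AGHMT, 133, 132 and 147 in GHMT, 124, 126 and 127 in GMT, and 27.8, 28.9 and 29.1 CPM in mock. AGHMT was highest at both days and mock apart below all cocktails. For Ldhb the log2 fold change was 3.64 ± 0.07 in AGHMT, 2.48 ± 0.07 in GHMT and 2.80 ± 0.07 in GMT (largest adjusted p 3.26e-20) at day 7. For Ldhb at day 2 it was 3.65 ± 0.07 in AGHMT, 2.26 ± 0.07 in GHMT and 2.14 ± 0.07 in GMT (largest adjusted p 1.06e-18). Ldha, the subunit that favours making lactate, had 932, 941 and 941 CPM in AGHMT, 563, 605 and 561 in GHMT, 463, 459 and 458 in GMT, and 453, 446 and 412 CPM in mock at day 7. All 4 groups lay apart. The Ldha change was 1.10 ± 0.06 in AGHMT, 0.40 ± 0.06 in GHMT and 0.07 ± 0.06 in GMT (adjusted p 5.17e-14, 4.50e-06 and 0.304) at day 7, where the GMT value did not pass. At day 2 its values were -0.03 ± 0.06 in AGHMT, -0.40 ± 0.06 in GHMT and -0.84 ± 0.06 in GMT (adjusted p 0.649, 4.08e-06 and 1.41e-11), lower in GHMT and GMT and not called in AGHMT.

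Phosphofructokinase commits sugar to glycolysis. Pfkm, its muscle form, had 220.2, 210.02 and 215 CPM in AGHMT, 73.8, 75.01 and 74.5 in GHMT, 78.7, 79.1 and 80.3 in GMT, and 44.9, 46.02 and 43.8 CPM in mock at day 7. Its day 2 range was 139 to 150.4 CPM in AGHMT, 63.4 to 66.1 CPM in GHMT, 59.7 to 61.2 CPM in GMT and 31.7 to 32.3 CPM in mock. AGHMT stood well above the other cocktails at both days. For Pfkm the log2 fold change was 2.26 ± 0.04 in AGHMT, 0.73 ± 0.04 in GHMT and 0.82 ± 0.04 in GMT (largest adjusted p 4.99e-15) at day 7. For Pfkm at day 2 it was 2.17 ± 0.04 in AGHMT, 1.02 ± 0.04 in GHMT and 0.92 ± 0.04 in GMT (largest adjusted p 8.98e-17). Pfkl, the liver form, had 217, 215 and 204 CPM in AGHMT, 112, 119 and 109.6 in GHMT, 73.2, 71.01 and 72.3 in GMT, and 78.4, 76.5 and 68.8 CPM in mock at day 7. GMT overlapped mock. The Pfkl change was 1.51 ± 0.06 in AGHMT, 0.60 ± 0.06 in GHMT and -0.05 ± 0.06 in GMT (adjusted p 1.68e-17, 1.62e-09 and 0.491) at day 7. For Pfkl at day 2 it was -0.03 ± 0.06 in AGHMT, -0.14 ± 0.06 in GHMT and -1.08 ± 0.06 in GMT (adjusted p 0.687, 0.0423 and 2.68e-14), so that GMT was below mock at day 2. The GHMT value at day 2 did not pass without GHMT day 2 replicate 1 (-0.08, adjusted p 0.252), mock day 2 replicate 1 (-0.10, adjusted p 0.175) or mock day 2 replicate 2 (-0.12, adjusted p 0.132). Pfkp, the platelet form, had 148, 146 and 147 CPM in AGHMT, 135, 127 and 136 in GHMT, 119, 125 and 125 in GMT, and 31.2, 29.6 and 31.2 CPM in mock at day 7. The 3 cocktails lay close together and far above mock. The Pfkp change was 2.27 ± 0.04 in AGHMT, 2.11 ± 0.04 in GHMT and 2.01 ± 0.04 in GMT (largest adjusted p 5.55e-23) at day 7. For Pfkp at day 2 it was 0.44 ± 0.04 in AGHMT, 1.26 ± 0.04 in GHMT and 0.87 ± 0.04 in GMT (largest adjusted p 6.59e-10). Pfkp shares 748 exonic bases with Pitrm1 on the opposite strand.

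Enolase gave a different order of cocktails. Eno3 had 54.3, 50.4 and 54.5 CPM in AGHMT, 87.2, 89.8 and 89.1 in GHMT, 282, 287 and 293 in GMT, and 15.8, 15.95 and 16.3 CPM in mock at day 7. Eno3 at day 2 had 45.6, 41.4 and 55.8 CPM in AGHMT, 69.7, 66.8 and 76.2 in GHMT, 122, 119 and 126 in GMT, and 29.4, 25.6 and 29.8 CPM in mock. The order was GMT, GHMT, AGHMT and mock at both days, with no overlap, the reverse of the order of Pygm among the cocktails. For Eno3 the log2 fold change was 1.73 ± 0.08 in AGHMT, 2.47 ± 0.08 in GHMT and 4.16 ± 0.08 in GMT (largest adjusted p 5.32e-16) at day 7. For Eno3 at day 2 it was 0.75 ± 0.08 in AGHMT, 1.33 ± 0.08 in GHMT and 2.12 ± 0.08 in GMT (largest adjusted p 2.36e-09). The Eno3 change was larger at day 7 by 2.05 ± 0.11 in GMT (adjusted p 5.90e-14). Eno1, the widely expressed enolase, had 754, 743 and 742 CPM in AGHMT, 621, 668 and 652 in GHMT, 646, 638 and 640.2 in GMT, and 534, 520.1 and 468 CPM in mock at day 7. GHMT and GMT overlapped. The Eno1 change was 0.56 ± 0.06 in AGHMT, 0.35 ± 0.06 in GHMT and 0.34 ± 0.06 in GMT (largest adjusted p 2.21e-05) at day 7. For Eno1 at day 2 it was -0.81 ± 0.06 in AGHMT, -0.71 ± 0.06 in GHMT and -1.09 ± 0.06 in GMT (largest adjusted p 1.48e-10). Eno2, the neuronal enolase, went the other way. At day 7 it had 3.96, 4.64 and 4.28 CPM in AGHMT, 4.93, 4.95 and 5.61 in GHMT, 6.94, 7.42 and 7.85 in GMT, and 23.1, 21.6 and 21.2 CPM in mock, with mock apart above the cocktails. It changed by -2.35 ± 0.08 in AGHMT, -2.09 ± 0.08 in GHMT and -1.57 ± 0.08 in GMT (largest adjusted p 1.16e-15) at day 7. For Eno2 at day 2 it was -2.09 ± 0.08 in AGHMT, -1.75 ± 0.07 in GHMT and -0.97 ± 0.07 in GMT (largest adjusted p 4.01e-12).

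The share of the muscle-type isoform in its step, from CPM per kilobase of exon, summarises these shifts, and is given as mean ± SD over 3 libraries with no test. For lactate dehydrogenase the isoform taken was Ldhb, the heart subunit. For phosphoglycerate mutase, Pgam2 made up 84.6% ± 0.105 in AGHMT, 68.5% ± 1.53 in GHMT and 72.4% ± 0.6 in GMT at day 7, against 5.24% ± 0.467 in mock. For enolase, Eno3 made up 17.9% ± 0.62 in AGHMT, 29.6% ± 0.45 in GHMT and 57.7% ± 0.566 in GMT, against 8.54% ± 0.679 in mock. The Eno3 share depends on the length taken for each gene. In GMT at day 7 it was 36.5% with the longest transcript as the length and 30.7% with no length correction, and in mock 3.83% and 2.95%. GMT had the highest share and mock the lowest under each of these. For Pgam2 with no length correction, the day 7 share was 69.9% in AGHMT, 48.0% in GHMT and 52.6% in GMT, against 2.29% in mock.

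For lactate dehydrogenase, Ldhb made up 48.5% ± 0.543 in AGHMT, 40.7% ± 0.579 in GHMT and 51.7% ± 0.835 in GMT, against 13.9% ± 0.27 in mock. The Ldhb share also depends on the length taken. Ldha has 3310 exonic bases but 1815 in its longest transcript, and Ldhb 1570 and 1304. With no length correction Ldha was above Ldhb in every group at day 7. Its mean was 460 CPM in GMT and 938 CPM in AGHMT, against 233 and 418 CPM for Ldhb. For glycogen phosphorylase, Pygm made up 33.2% ± 0.866 in AGHMT, 9.62% ± 0.407 in GHMT and 2.63% ± 0.326 in GMT, against 0.254% ± 0.0367 in mock. Pygb remained the larger part in every group. For the PDKs, Pdk4 made up 18.7% ± 0.936 in AGHMT, 41.4% ± 1.48 in GHMT and 72.4% ± 0.803 in GMT, against 12.3% ± 0.955 in mock. At day 2 the shares of Pgam2, Eno3, Ldhb, Pygm and Pdk4 were likewise above mock in every cocktail. Pygm at day 2 held 14.9% ± 0.534 in AGHMT, 4.33% ± 0.148 in GHMT and 6.97% ± 0.132 in GMT, against 1.16% ± 0.171 in mock, with GMT above GHMT there and below it at day 7.

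Most remaining steps differed in direction between cocktails or between days. Hk2 held 38.3% ± 1.53 of the 2 hexokinases in AGHMT, 40.96% ± 0.941 in GHMT and 36.3% ± 0.279 in GMT at day 7, against 23.4% ± 0.438 in mock. Hk2 at day 2 held 18.8% ± 1.19 in AGHMT, 34.5% ± 0.873 in GHMT and 42.4% ± 0.915 in GMT, against 38.4% ± 1.58 in mock. The day 2 shares in AGHMT and GHMT lay below mock, whereas at day 7 all cocktails lay above it. Pfkm held 60.1% ± 0.73 of phosphofructokinase in AGHMT, 45.3% ± 0.242 in GHMT and 54.3% ± 0.0458 in GMT, against 50.01% ± 1.07 in mock at day 7, so that GHMT was below mock. With no length correction GMT was below mock too, at 28.9% in GMT against 29.9% in mock. Pfkm at day 2 held 63.1% ± 0.498 in AGHMT, 40.96% ± 0.562 in GHMT and 51.6% ± 0.473 in GMT, against 28.5% ± 1.36 in mock, so that every cocktail was above mock. Pfkfb2, the heart form of the enzyme that makes and breaks the activator of phosphofructokinase, held 12.3% ± 0.336 in AGHMT, 11.6% ± 0.372 in GHMT and 18.4% ± 0.46 in GMT, against 21.2% ± 0.701 in mock at day 7, with all cocktails below mock. Pfkfb2 at day 2 held 11.8% ± 0.385 in AGHMT, 13.9% ± 0.618 in GHMT and 21.2% ± 1.04 in GMT, against 14.6% ± 1.43 in mock, and there GMT was above mock. Slc2a4, the insulin-responsive glucose carrier, held 0.857% ± 0.0305 in AGHMT, 0.869% ± 0.103 in GHMT and 7.53% ± 0.387 in GMT, against 2.66% ± 0.218 in mock at day 7. Slc2a4 at day 2 held 1.61% ± 0.113 in AGHMT, 1.19% ± 0.147 in GHMT and 8.18% ± 0.0375 in GMT, against 0.649% ± 0.111 in mock. AGHMT and GHMT were thus below mock at day 7 and above it at day 2. Aldolase was almost wholly Aldoa, with a share of at least 99.4% in every library of every group at day 7.

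**Figure D3:**
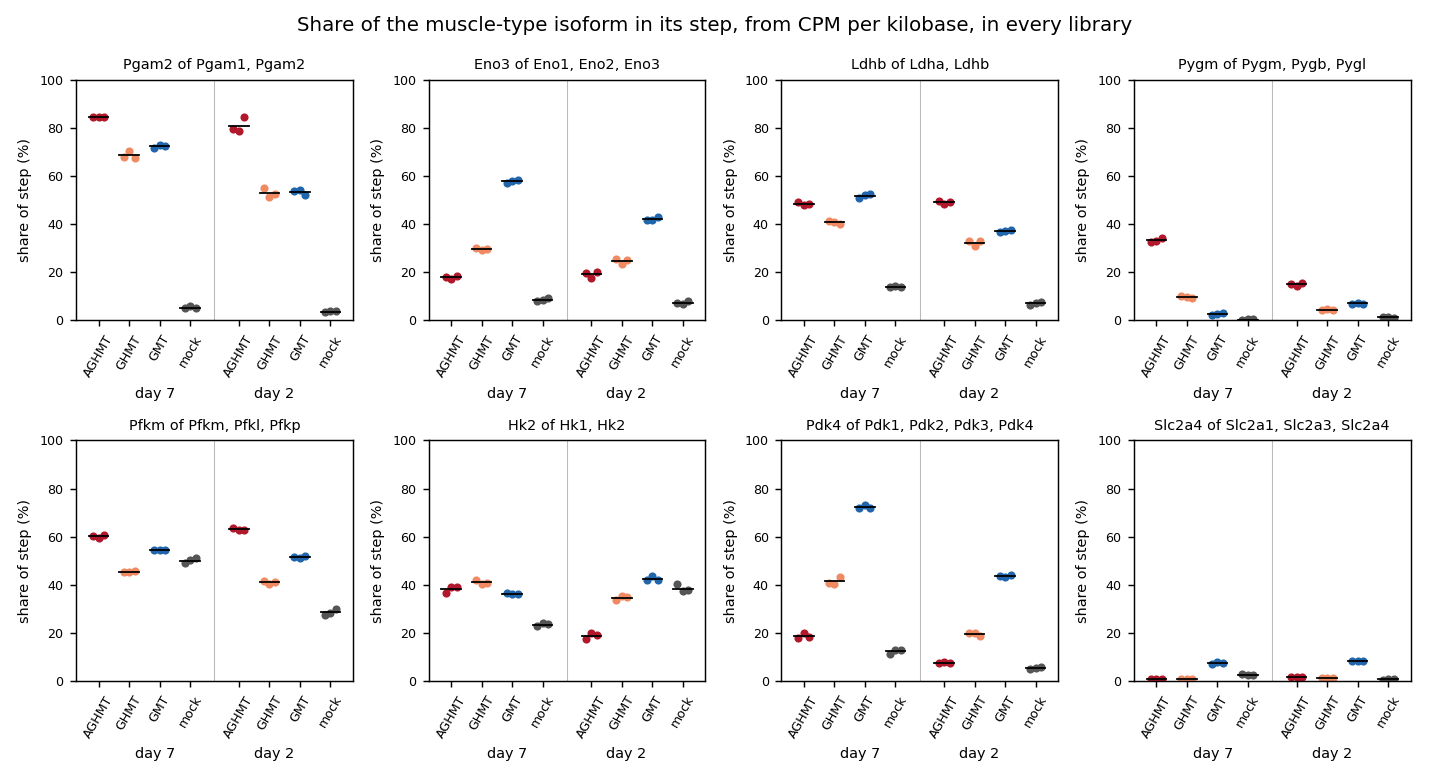
Share of the muscle-type isoform in the summed CPM per kilobase of its step, in percent, with a point for every library and a line at the group mean. For lactate dehydrogenase the share is that of the heart subunit Ldhb. Pgam2 passes 50% in every library of the cocktails and stays under 10% in mock, Eno3 and Pdk4 are highest in GMT, and Pygm is highest in AGHMT.

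Among the glucose carriers Slc2a1, which encodes the basal carrier GLUT1 of most cells, had the highest levels. At day 7 it had 196, 184 and 181 CPM in AGHMT, 221, 220.1 and 208 in GHMT, 75.5, 80.2 and 76.9 in GMT, and 56.2, 54.2 and 51.5 CPM in mock. GHMT was highest and AGHMT next, and GMT lay only a little above mock, with no overlap. For Slc2a1 the log2 fold change was 1.79 ± 0.06 in AGHMT, 2.00 ± 0.06 in GHMT and 0.52 ± 0.06 in GMT (largest adjusted p 9.10e-09) at day 7. For Slc2a1 at day 2 it was 0.38 ± 0.05 in AGHMT, 0.43 ± 0.05 in GHMT and -1.05 ± 0.06 in GMT (largest adjusted p 1.07e-06), so that GMT was below mock at day 2. Slc2a4 had 1.67, 1.57 and 1.64 CPM in AGHMT, 1.82, 1.82 and 2.1 in GHMT, 5.9, 7.0 and 6.39 in GMT, and 1.77, 1.6 and 1.39 CPM in mock at day 7, low levels throughout. The Slc2a4 change was 0.03 ± 0.13 in AGHMT, 0.26 ± 0.12 in GHMT and 2.01 ± 0.10 in GMT (adjusted p 0.881, 0.123 and 2.94e-15), which passed in GMT only. At day 2 Slc2a4 was higher in every cocktail, by 1.67 ± 0.14 in AGHMT, 1.29 ± 0.15 in GHMT and 2.71 ± 0.12 in GMT (largest adjusted p 2.32e-08). Levels were low there too, with means of 2.38 CPM in AGHMT, 1.82 in GHMT, 4.90 in GMT and 0.745 CPM in mock. The day 2 mock values rest on 23 to 28 reads per library. Slc2a3, the high-affinity neuronal carrier, had 5.13, 5.81 and 4.43 CPM in AGHMT, 8.1, 9.79 and 8.59 in GHMT, 4.09, 4.11 and 4.03 in GMT, and 8.6, 10.3 and 9.86 CPM in mock at day 7. The Slc2a3 change was -0.91 ± 0.11 in AGHMT, -0.12 ± 0.10 in GHMT and -1.23 ± 0.11 in GMT (adjusted p 4.17e-08, 0.29 and 2.67e-10), which passed in AGHMT and GMT. Slc2a3 at day 2 was lower in every cocktail, by -1.20 ± 0.11 in AGHMT, -0.93 ± 0.11 in GHMT and -1.50 ± 0.12 in GMT (largest adjusted p 6.77e-08).

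Hexokinase traps glucose as its phosphate. Hk2, the insulin-responsive form of muscle, had 155, 162 and 165 CPM in AGHMT, 139.9, 127 and 139 in GHMT, 149, 152 and 151 in GMT, and 21.3, 22.3 and 20.4 CPM in mock at day 7. Hk2 at day 2 had 52.4, 55.6 and 52.99 CPM in AGHMT, 75.9, 73.9 and 77.8 in GHMT, 106, 108 and 102 in GMT, and 58.9, 51.9 and 49.998 CPM in mock. All cocktails lay far above mock at day 7, whereas at day 2 AGHMT overlapped mock. For Hk2 the log2 fold change was 2.91 ± 0.06 in AGHMT, 2.66 ± 0.06 in GHMT and 2.82 ± 0.06 in GMT (largest adjusted p 6.12e-23) at day 7. For Hk2 at day 2 it was 0.00 ± 0.05 in AGHMT, 0.50 ± 0.05 in GHMT and 0.98 ± 0.05 in GMT (adjusted p 0.985, 7.18e-09 and 1.62e-14). In AGHMT the day difference of 2.91 ± 0.08 (adjusted p 2.08e-19) was the largest upward one of the 40 genes. Mock cells lost Hk2 between the days (-1.33 ± 0.06, adjusted p 7.69e-16). Hk1, the form of most tissues, had 386, 360.01 and 366 CPM in AGHMT, 276, 271 and 288 in GHMT, 367, 384 and 381 in GMT, and 102, 101 and 95.2 CPM in mock at day 7. GMT and AGHMT overlapped above GHMT and mock. The Hk1 change was 1.90 ± 0.05 in AGHMT, 1.48 ± 0.05 in GHMT and 1.92 ± 0.05 in GMT (largest adjusted p 3.79e-19) at day 7. For Hk1 at day 2 it was 1.43 ± 0.05 in AGHMT, 0.75 ± 0.05 in GHMT and 0.74 ± 0.05 in GMT (largest adjusted p 6.92e-13).

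The bifunctional enzymes of the Pfkfb family set the level of fructose 2,6-bisphosphate, the activator of phosphofructokinase. Pfkfb3, the strongly synthesising form of growing cells, had 109, 108 and 111 CPM in AGHMT, 78.2, 71.4 and 79.4 in GHMT, 51.7, 51.1 and 52.9 in GMT, and 28.4, 29.04 and 27.3 CPM in mock at day 7, in that order with no overlap. The Pfkfb3 change was 1.95 ± 0.06 in AGHMT, 1.43 ± 0.06 in GHMT and 0.88 ± 0.06 in GMT (largest adjusted p 5.11e-12) at day 7. For Pfkfb3 at day 2 it was 1.31 ± 0.06 in AGHMT, 0.59 ± 0.06 in GHMT and 0.18 ± 0.06 in GMT (largest adjusted p 0.012). Pfkfb2 had 15.7, 16.6 and 16.7 CPM in AGHMT, 12.2, 10.6 and 11.7 in GHMT, 13.9, 14.4 and 14.5 in GMT, and 11.7, 11.6 and 11.95 CPM in mock at day 7. The Pfkfb2 change was 0.47 ± 0.07 in AGHMT, -0.03 ± 0.07 in GHMT and 0.28 ± 0.07 in GMT (adjusted p 8.85e-07, 0.679 and 8.24e-04). Pfkfb4, best known from testis and hypoxic cells, averaged 5.74 ± 0.39 CPM in AGHMT, 7.35 ± 0.539 CPM in GHMT, 6.74 ± 0.402 CPM in GMT and 7.43 ± 0.558 CPM in mock at day 7. The Pfkfb4 change was -0.37 ± 0.09 in AGHMT, -0.02 ± 0.08 in GHMT and -0.14 ± 0.08 in GMT (adjusted p 3.71e-04, 0.837 and 0.135). Only AGHMT was called lower at day 7, and without mock day 7 replicate 3 GMT was too (-0.20, adjusted p 0.0436). Pfkfb4 at day 2 was lower in every cocktail, by -1.09 ± 0.08 in AGHMT, -0.88 ± 0.08 in GHMT and -1.27 ± 0.08 in GMT (largest adjusted p 3.22e-10). Pfkfb1, the form of liver and muscle, was under 4 CPM on average in every group. Its change was -0.71 ± 0.15 in AGHMT, -0.70 ± 0.14 in GHMT and -0.67 ± 0.14 in GMT (largest adjusted p 1.66e-04) at day 7. Pfkfb2 shares 1262 exonic bases with Gm29427 on the same strand.

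The enzymes between, each made mostly by 1 gene, rose together in AGHMT at day 7. Gpi1, which turns glucose phosphate into fructose phosphate, had 539.6, 518 and 544 CPM in AGHMT, 366, 376 and 366 in GHMT, 439, 453 and 451 in GMT, and 205, 195 and 176 CPM in mock. Aldoa, which splits the 6-carbon sugar, had 869, 846 and 838 CPM in AGHMT, 569.7, 619 and 578 in GHMT, 579, 582 and 563 in GMT, and 469, 427 and 383 CPM in mock. Tpi1, which interconverts the resulting 3-carbon sugars, had 463, 473 and 460.2 CPM in AGHMT, 216, 222 and 217 in GHMT, 212, 219.8 and 218 in GMT, and 187, 189 and 172 CPM in mock. In all of them AGHMT was highest, mock was lowest and the groups next to mock were still apart from it. For Gpi1 the log2 fold change was 1.48 ± 0.05 in AGHMT, 0.94 ± 0.05 in GHMT and 1.22 ± 0.05 in GMT (largest adjusted p 6.79e-15). For Aldoa it was 1.00 ± 0.07 in AGHMT, 0.47 ± 0.07 in GHMT and 0.43 ± 0.07 in GMT (largest adjusted p 3.59e-06). For Tpi1 it was 1.35 ± 0.06 in AGHMT, 0.25 ± 0.06 in GHMT and 0.24 ± 0.06 in GMT (largest adjusted p 0.00123).

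The next steps, which capture energy, gave the same order between AGHMT and mock. Gapdh, which oxidises the 3-carbon sugar, had 445, 434 and 452 CPM in AGHMT, 267, 279 and 271 in GHMT, 309, 315 and 307 in GMT, and 163, 158 and 147 CPM in mock. Pgk1, which makes the first ATP, had 367, 373 and 365 CPM in AGHMT, 209, 216 and 205 in GHMT, 203, 201 and 199 in GMT, and 188, 178 and 168 CPM in mock. Pkm, which makes pyruvate, had 2788, 2756 and 2729 CPM in AGHMT, 1612, 1638 and 1619 in GHMT, 1838, 1813 and 1789.5 in GMT, and 911, 886 and 825 CPM in mock. Here too AGHMT lay apart above every other group, and without mock day 7 replicate 3 the GMT value of Pgk1 did not pass (0.13, adjusted p 0.0710). For Gapdh the log2 fold change was 1.51 ± 0.05 in AGHMT, 0.81 ± 0.05 in GHMT and 0.99 ± 0.05 in GMT (largest adjusted p 4.89e-13). For Pgk1 it was 1.05 ± 0.06 in AGHMT, 0.24 ± 0.06 in GHMT and 0.17 ± 0.06 in GMT (largest adjusted p 0.00885). For Pkm it was 1.66 ± 0.05 in AGHMT, 0.89 ± 0.05 in GHMT and 1.05 ± 0.05 in GMT (largest adjusted p 9.80e-15). Several of these enzymes, Gapdh, Pgk1, Tpi1, Eno1, Ldha and Aldoa among them, have processed pseudogenes, and how reads shared with such copies were counted is not given in the sources used here. Gene counts do not separate the adult muscle and the embryonic splice forms of Pkm. Aldoc, the brain aldolase, averaged 1.27 ± 0.3 CPM in AGHMT, 0.786 ± 0.0296 CPM in GHMT, 1.18 ± 0.31 CPM in GMT and 2.38 ± 0.606 CPM in mock at day 7. The Aldoc change was -0.92 ± 0.20 in AGHMT, -1.60 ± 0.22 in GHMT and -1.01 ± 0.20 in GMT (largest adjusted p 2.59e-04).

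These increases stand on a control that moved. In mock cells 24 of the 40 genes were lower and 10 higher at day 7 than at day 2 (background 25.8% lower and 29.7% higher). Their median log2 change was -0.46 beside 0.0033 over all tested genes. Pgk1 averaged 178 ± 10.4 CPM at day 7 and 369 ± 18.7 CPM at day 2 in mock (-1.05 ± 0.06, adjusted p 1.00e-13). Eno1 averaged 507 ± 34.9 CPM at day 7 and 1079 ± 74.3 CPM at day 2 (-1.09 ± 0.06, adjusted p 1.39e-13). Ldha averaged 437 ± 21.6 CPM at day 7 and 807 ± 53.1 CPM at day 2 (-0.89 ± 0.06, adjusted p 1.59e-11). Day 7 mock levels of these enzymes were thus well below the day 2 levels.

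In AGHMT, where the same genes were above mock at day 7, the levels within the cocktail differed less between days. Pgk1 averaged 368 ± 3.86 CPM at day 7 and 254 ± 25.1 CPM at day 2 in AGHMT, and Ldha 938 ± 5.38 CPM and 789 ± 99.8 CPM. The day 2 level of Pgk1 in mock, 369 ± 18.7 CPM, was close to its day 7 level in AGHMT. Against the mock of the same day, Eno1, Pgk1, Slc16a1 and Slc16a3 were higher in AGHMT at day 7 and lower at day 2 (background 2.97%). Aldoa, Hk2, Ldha, Pfkl and Tpi1 were higher at day 7 and not called at day 2 (background 6.66%). In GHMT 11 genes were higher at day 7 and lower at day 2 (background 3.31%), and in GMT 8 were (background 3.41%).

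The test of the day difference itself called 26 genes with a change that was more positive at day 7 and 4 with one more negative in AGHMT (background 24.8% and 26.1%). It called 27 and 7 in GHMT (background 23.3% and 26.0%), and 26 and 5 in GMT (background 24.3% and 25.3%). These 3 tests share the mock libraries of both days, and each includes the fall within mock. At day 2 Pgk1 changed against mock by -0.54 ± 0.06 in AGHMT, -0.76 ± 0.06 in GHMT and -1.25 ± 0.06 in GMT (largest adjusted p 6.36e-09). Gapdh changed by 0.31 ± 0.05 in AGHMT, -0.17 ± 0.05 in GHMT and -0.38 ± 0.05 in GMT (largest adjusted p 0.00421). For Tpi1 the values were -0.02 ± 0.06 in AGHMT, -0.52 ± 0.06 in GHMT and -0.87 ± 0.06 in GMT (adjusted p 0.737, 5.24e-08 and 5.90e-12). In every one of these 3 genes GMT had the lowest value. For Aldoa the values were -0.01 ± 0.07 in AGHMT, -0.38 ± 0.07 in GHMT and -0.84 ± 0.07 in GMT (adjusted p 0.906, 2.52e-05 and 5.25e-11). For Gpi1 they were 0.50 ± 0.05 in AGHMT, 0.07 ± 0.05 in GHMT and 0.23 ± 0.05 in GMT (adjusted p 1.29e-09, 0.243 and 1.87e-04). For Pkm they were 0.51 ± 0.05 in AGHMT, -0.15 ± 0.05 in GHMT and -0.14 ± 0.05 in GMT (largest adjusted p 0.014). Replicate 3 of AGHMT at day 2, one of the libraries that stood apart, was the highest of its group in all of these. Without it the day 2 values in AGHMT passed as lower for Tpi1 (-0.13, adjusted p 0.0100) and Ldha (-0.14, adjusted p 0.0111). Without mock day 2 replicate 1 the small decreases of Pkm at day 2 did not pass in GHMT (-0.11, adjusted p 0.0558) or GMT (-0.09, adjusted p 0.115).

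**Figure D4:**
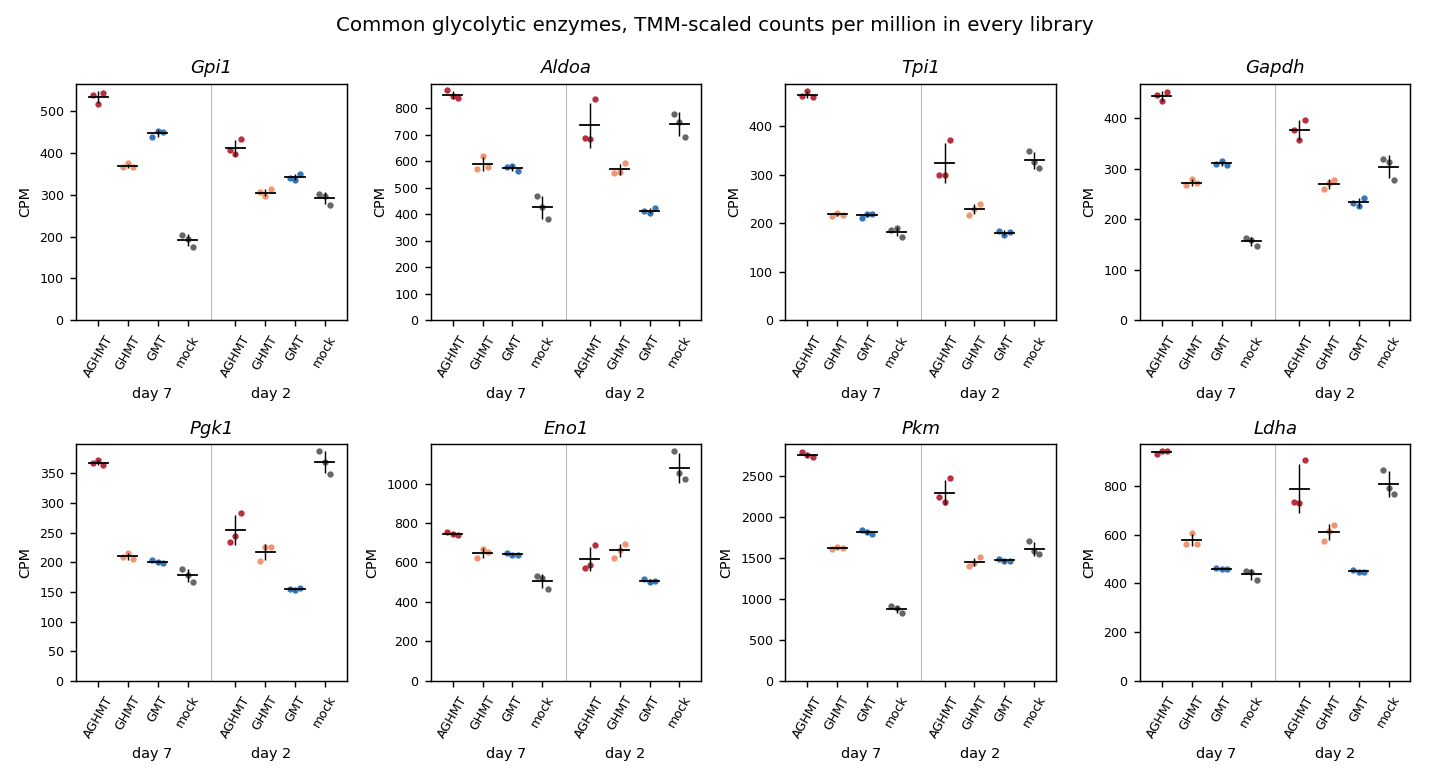
Levels of 8 common glycolytic enzymes in every library, in TMM-scaled CPM on an axis that starts at 0. Shown are points for the 3 libraries of a group, a line at the mean and a bar of 1 SD. At day 7 AGHMT is highest in all 8 and mock lowest, while at day 2 mock overlaps or exceeds AGHMT for Aldoa, Tpi1, Pgk1, Eno1 and Ldha.

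Lactate carriers split by cocktail. Slc16a3, the carrier MCT4 that exports lactate from strongly glycolytic cells, had 38.1, 40.1 and 37.8 CPM in AGHMT, 24.1, 23.4 and 21.3 in GHMT, 6.73, 6.74 and 7.04 in GMT, and 17.2, 15.7 and 13.9 CPM in mock at day 7. Slc16a3 at day 2 had 29.5, 29.6 and 30.96 CPM in AGHMT, 41.6, 45.5 and 42.7 in GHMT, 4.62, 4.85 and 4.63 in GMT, and 75.97, 69.04 and 63.3 CPM in mock. GMT was lowest at both days and apart from every other group, and at day 2 mock was highest. For Slc16a3 the log2 fold change was 1.31 ± 0.07 in AGHMT, 0.55 ± 0.07 in GHMT and -1.19 ± 0.08 in GMT (largest adjusted p 1.91e-07) at day 7. For Slc16a3 at day 2 it was -1.21 ± 0.06 in AGHMT, -0.68 ± 0.06 in GHMT and -3.88 ± 0.08 in GMT (largest adjusted p 6.46e-10). Slc16a1, the carrier MCT1 used for uptake in heart, had 87.1, 87.6 and 86.9 CPM in AGHMT, 70.5, 66.99 and 64.4 in GHMT, 50.4, 48.3 and 49.98 in GMT, and 52.5, 48.3 and 47.2 CPM in mock at day 7. GMT overlapped mock. The Slc16a1 change was 0.82 ± 0.05 in AGHMT, 0.45 ± 0.05 in GHMT and 0.01 ± 0.05 in GMT (adjusted p 2.78e-13, 3.32e-08 and 0.923) at day 7. For Slc16a1 at day 2 it was -0.24 ± 0.06 in AGHMT, -0.15 ± 0.06 in GHMT and 0.00 ± 0.05 in GMT (adjusted p 4.06e-04, 0.0185 and 0.968). The GHMT value at day 2 did not pass without GHMT day 2 replicate 2 or 3 or without mock day 2 replicate 1 or 2. The log2 values were then -0.14, with adjusted p of 0.0516 to 0.0606.

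Among the PDKs, which phosphorylate and switch off pyruvate dehydrogenase, Pdk4 and Pdk1 had opposite orders of the cocktails. Pdk4 had 34.6, 39.2 and 35.4 CPM in AGHMT, 68.95, 66.6 and 74.9 in GHMT, 243, 249.8 and 252 in GMT, and 10.3, 11.4 and 11.8 CPM in mock at day 7. Pdk4 at day 2 had 12.6, 13.3 and 12.4 CPM in AGHMT, 25.8, 25.04 and 23.1 in GHMT, 69.1, 67.4 and 69.2 in GMT, and 5.16, 5.44 and 5.74 CPM in mock. GMT was highest, then GHMT and AGHMT, and mock lowest, with no overlap at either day. For Pdk4 the log2 fold change was 1.70 ± 0.06 in AGHMT, 2.65 ± 0.06 in GHMT and 4.47 ± 0.06 in GMT (largest adjusted p 3.47e-18) at day 7. For Pdk4 at day 2 it was 1.23 ± 0.07 in AGHMT, 2.18 ± 0.07 in GHMT and 3.65 ± 0.07 in GMT (largest adjusted p 1.29e-13). Pdk1, which is known as a target of the hypoxia response, had 106, 110.04 and 109 CPM in AGHMT, 31.9, 29.9 and 28.8 in GHMT, 19.2, 18.96 and 20.4 in GMT, and 23.3, 23.3 and 24.6 CPM in mock at day 7. AGHMT lay far above the rest and GMT below mock. The Pdk1 change was 2.19 ± 0.04 in AGHMT, 0.35 ± 0.05 in GHMT and -0.28 ± 0.05 in GMT (largest adjusted p 7.85e-06) at day 7. For Pdk1 at day 2 it was 0.70 ± 0.04 in AGHMT, -0.20 ± 0.04 in GHMT and -1.29 ± 0.05 in GMT (largest adjusted p 2.99e-04). Pdk2, the widely expressed kinase, had 33.00, 32.6 and 32.4 CPM in AGHMT, 26.2, 26.9 and 25.6 in GHMT, 26.1, 25.3 and 25.8 in GMT, and 19.2, 19.1 and 17.5 CPM in mock at day 7. The Pdk2 change was 0.81 ± 0.05 in AGHMT, 0.50 ± 0.05 in GHMT and 0.47 ± 0.05 in GMT (largest adjusted p 2.25e-09). Pdk3 averaged 53.01 ± 0.608 CPM in AGHMT, 41.3 ± 1.27 CPM in GHMT, 41.8 ± 1.89 CPM in GMT and 35.5 ± 2.3 CPM in mock at day 7. The Pdk3 change was 0.58 ± 0.05 in AGHMT, 0.22 ± 0.05 in GHMT and 0.23 ± 0.05 in GMT (largest adjusted p 1.87e-04). This was a small increase in each cocktail at day 7. Pdk3 at day 2 was called higher in AGHMT. It changed by -0.06 ± 0.04 in GHMT and -0.17 ± 0.04 in GMT (adjusted p 0.253 and 0.0018), which passed as lower in GMT only.

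The comparison of AGHMT with GHMT, which differ by the added Akt1, called 31 of the 40 genes higher and 6 lower at day 7 (background 25.0% and 23.6%). The median log2 fold change was 0.54. At day 2 it called 26 higher and 9 lower (background 25.7% and 27.0%), with a median of 0.37. The genes more than 2-fold higher in AGHMT at day 7 were Pygm (2.18 ± 0.06), Pgam2 (1.88 ± 0.07), Pdk1 (1.84 ± 0.04), Ppp1r3c (1.61 ± 0.06), Phkg1 (1.54 ± 0.11), Pfkm (1.53 ± 0.04), Gbe1 (1.27 ± 0.05), Ldhb (1.16 ± 0.07) and Tpi1 (1.09 ± 0.06), with a largest adjusted p of 8.76e-12. Pygm, Ppp1r3c, Phkg1 and Gbe1 of these act on glycogen. Eno3 (-0.74 ± 0.07), Pdk4 (-0.95 ± 0.05) and Slc2a3 (-0.79 ± 0.11) were lower in AGHMT, with adjusted p of 4.58e-09, 2.48e-13 and 1.26e-06.

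The comparison of GHMT with GMT, which differ by the added Hand2, was balanced at day 7. It called 13 genes higher and 17 lower (background 18.7% and 18.8%) and a median of -0.0035. At day 2, 21 were higher and 9 lower (background 23.1% and 21.7%), with a median of 0.17. Pygm (2.35 ± 0.07), Phkg1 (2.19 ± 0.15), Slc16a3 (1.75 ± 0.08), Slc2a1 (1.48 ± 0.06) and Slc2a3 (1.11 ± 0.11) were more than 2-fold higher in GHMT at day 7, with a largest adjusted p of 7.71e-09. Pdk4 (-1.82 ± 0.05), Slc2a4 (-1.75 ± 0.10), Eno3 (-1.69 ± 0.07) and Ppp1r3c (-1.39 ± 0.06) were more than 2-fold lower, with a largest adjusted p of 1.26e-13. At day 2 the difference in Slc16a3 was 3.20 ± 0.08 (adjusted p 2.49e-20), the largest of the 40 in that comparison.

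**Figure D5:**
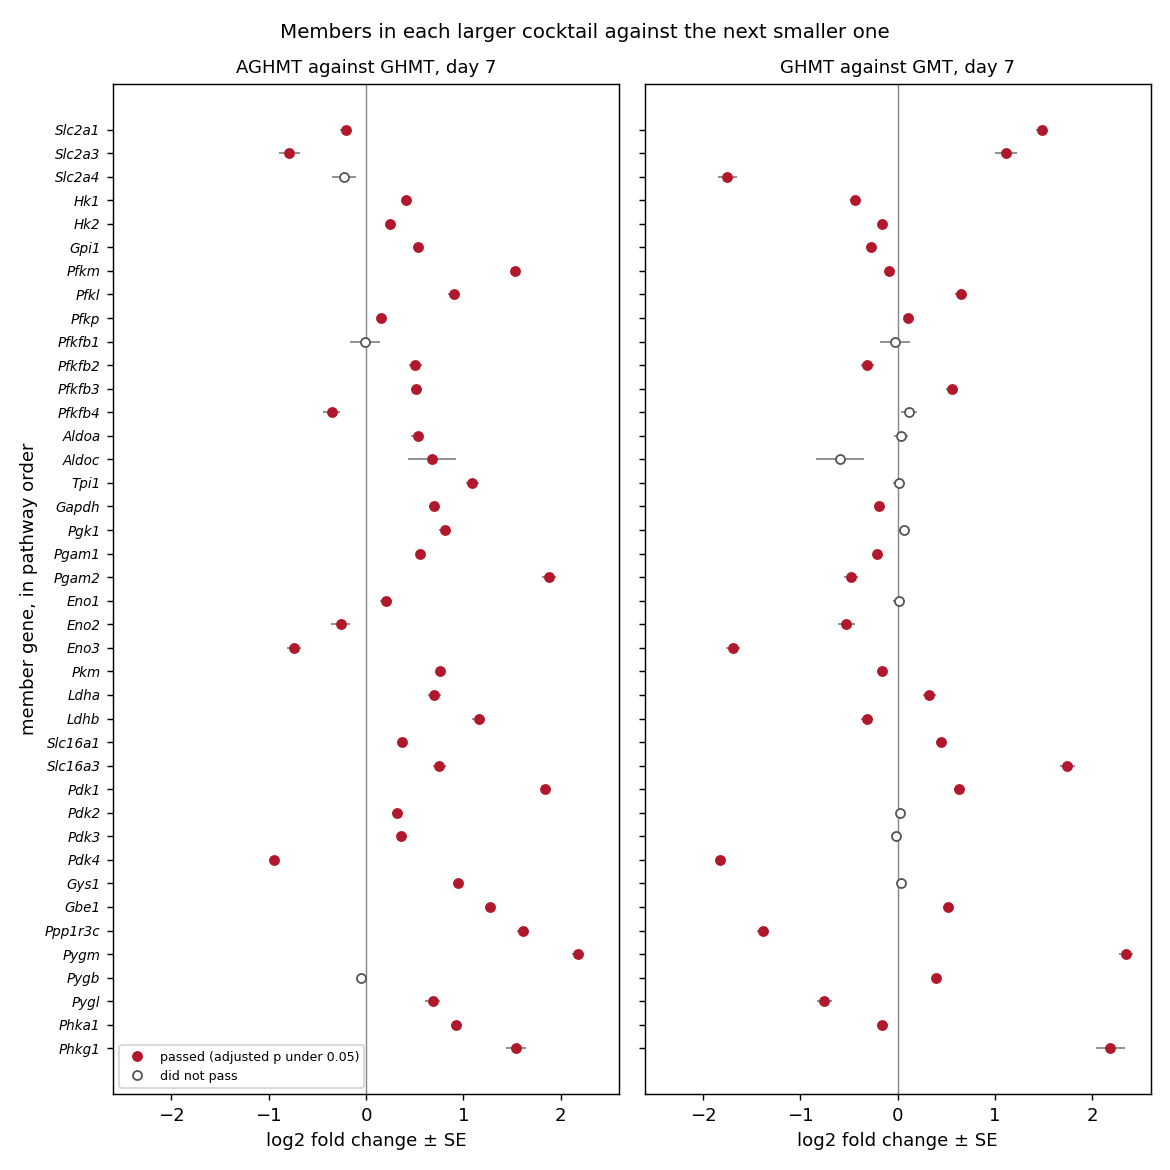
Log2 fold change with standard error of the 40 genes, in pathway order, for AGHMT against GHMT (left) and GHMT against GMT (right) at day 7. Points are filled for genes that passed an adjusted p of 0.05 and open for those that did not. Most points lie right of 0 in the left panel, while Eno3 and Pdk4 lie left of 0 in both panels and Pygm and Phkg1 right of 0 in both.

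Other genes of the same pathways were taken from lists by function. Of 15 tested regulators of glucose use, 14 were higher and 1 lower in AGHMT than in mock at day 7 (all tested genes 38.6% higher and 38.1% lower), with a median log2 fold change of 1.00. Ppargc1a, a coactivator of mitochondrial genes, averaged 34.8 ± 2.57 CPM in AGHMT and 1.36 ± 0.186 CPM in mock. Prkaa2, the AMP-activated kinase subunit of muscle, averaged 147 ± 4.01 CPM in AGHMT and 7.05 ± 0.793 CPM in mock. Tbc1d4, a target of Akt kinases in insulin-driven glucose uptake, averaged 88.6 ± 5.36 CPM in AGHMT and 5.35 ± 0.219 CPM in mock. Its relative Tbc1d1 averaged 156 ± 7.74 CPM in AGHMT and 53.3 ± 2.53 CPM in mock. All of these passed, with log2 fold changes of 4.67 ± 0.14 for Ppargc1a, 4.38 ± 0.11 for Prkaa2, 4.05 ± 0.09 for Tbc1d4 and 1.55 ± 0.07 for Tbc1d1 (largest adjusted p 2.75e-16). Values in parentheses after the other genes of these lists are log2 fold changes with SE, all of which passed. In both GHMT and GMT 13 of the 15 were called higher at day 7, beside 36.3% and 37.1% of all tested genes, with medians of 0.49 and 0.96.

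A list of mitochondrial pyruvate carriers and of pyruvate dehydrogenase with its phosphatases followed the same direction. Of its 10 genes, 8 were higher and 1 lower in AGHMT at day 7 (all tested genes 38.6% higher and 38.1% lower), with a median of 0.98. The genes named below belong to the complex or its phosphatases and are not carriers. Pdhb, a subunit of pyruvate dehydrogenase, averaged 144 ± 4.73 CPM in AGHMT and 50.3 ± 0.815 CPM in mock (1.51 ± 0.07). Pdhx, a structural subunit of the complex, averaged 50.3 ± 1.92 CPM in AGHMT and 18.6 ± 0.318 CPM in mock (1.44 ± 0.05). Pdp2, a phosphatase that opposes the PDKs, averaged 21.5 ± 1.33 CPM in AGHMT and 6.85 ± 0.273 CPM in mock (1.65 ± 0.09). Dld, the shared dehydrogenase subunit, averaged 205 ± 3.41 CPM in AGHMT and 106 ± 2.34 CPM in mock (0.95 ± 0.05). The list had 7 higher and 3 lower in GHMT (36.3% and 35.6% of all tested genes) and 8 higher and 2 lower in GMT (37.1% and 36.0% of all tested genes).

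Among 18 other tested glycogen genes, 15 were higher and 3 lower in AGHMT at day 7 (all tested genes 38.6% higher and 38.1% lower), with a median of 0.78. Stbd1, which tethers glycogen for breakdown in lysosomes, averaged 179 ± 6.04 CPM in AGHMT and 17.9 ± 0.111 CPM in mock (3.32 ± 0.07). Pgm2, by its name a phosphoglucomutase, averaged 136 ± 1.63 CPM in AGHMT and 41.8 ± 0.727 CPM in mock (1.71 ± 0.05). Pgm5, a phosphoglucomutase relative found at cell adhesions, was lower, with 8.74 ± 0.399 CPM in AGHMT and 95.7 ± 3.28 CPM in mock (-3.45 ± 0.11). GHMT had 9 higher and 4 lower of the 18 (36.3% and 35.6% of all tested genes) and GMT 12 higher and 4 lower (37.1% and 36.0% of all tested genes).

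Of 14 tested genes in the remaining list of glycolysis and gluconeogenesis, 9 were higher and 2 lower in AGHMT at day 7 (all tested genes 38.6% higher and 38.1% lower), with a median of 0.51. Tigar, a phosphatase that lowers fructose 2,6-bisphosphate, averaged 104 ± 2.62 CPM in AGHMT and 16.2 ± 0.449 CPM in mock (2.67 ± 0.05). Pcx, which carboxylates pyruvate, averaged 116 ± 0.357 CPM in AGHMT and 39.2 ± 2.19 CPM in mock (1.57 ± 0.05). Pck2, the mitochondrial enzyme that makes phosphoenolpyruvate, averaged 37.4 ± 2.47 CPM in AGHMT and 171 ± 8.11 CPM in mock (-2.19 ± 0.07). Hk3, a hexokinase of blood cells, averaged 0.363 ± 0.092 CPM in AGHMT and 4.23 ± 0.551 CPM in mock (-3.52 ± 0.19). Macrophage markers moved with Hk3. At day 7 all 19 were lower in AGHMT. Their summed level was 54.6 to 77.2 CPM in AGHMT, 78.3 to 83.0 CPM in GHMT and 72.5 to 86.3 CPM in GMT, against 478 to 698 CPM in mock. Their part in the lower genes was not tested.

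Sugar and lactate carriers outside the 40 had 11 of 14 tested genes higher and 2 lower in AGHMT at day 7 (all tested genes 38.6% higher and 38.1% lower), with a median of 0.53. Of the 2 lower ones the first was Emb, a partner protein of the lactate carriers, with 4.64 ± 0.413 CPM in AGHMT and 64.6 ± 4.05 CPM in mock (-3.80 ± 0.09). The other was Slc16a7, a carrier of lactate and pyruvate, with 2.92 ± 0.374 CPM in AGHMT and 9.59 ± 0.633 CPM in mock (-1.72 ± 0.10). Slc2a13, a carrier of inositol, averaged 36.9 ± 0.098 CPM in AGHMT and 18.01 ± 0.702 CPM in mock (1.03 ± 0.09). Slc37a4, which moves glucose phosphate into the endoplasmic reticulum, averaged 17.8 ± 0.380 CPM in AGHMT and 9.23 ± 0.566 CPM in mock (0.94 ± 0.08).

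The side branches and the hypoxia response were more mixed. Of 14 genes of the pentose phosphate and hexosamine branches, 8 were higher and 4 lower in AGHMT at day 7 (all tested genes 38.6% higher and 38.1% lower), with a median of 0.25. Gfpt2, which starts the hexosamine branch, averaged 159 ± 4.63 CPM in AGHMT and 15.3 ± 1.46 CPM in mock (3.37 ± 0.05). H6pd, a dehydrogenase of the endoplasmic reticulum, averaged 57.3 ± 2.76 CPM in AGHMT and 165 ± 9.60 CPM in mock (-1.53 ± 0.09). Rpe and Taldo1, both of the non-oxidative pentose steps, changed by 1.12 ± 0.06 and 0.85 ± 0.06. Of 18 hypoxia response genes outside glycolysis, 14 were higher and 4 lower in AGHMT, read against the same shares of all tested genes, with a median of 0.51. The 4 with the smallest p were all higher. These were Epas1, a hypoxia-induced transcription factor of endothelium (2.29 ± 0.08), Bnip3, a mitophagy receptor (2.00 ± 0.08), Hif1a, the regulated subunit of the hypoxia factor (1.02 ± 0.04), and P4ha1, a collagen prolyl hydroxylase (0.97 ± 0.04). In GMT the same list had 8 higher and 7 lower at day 7, shares near the 37.1% and 36.0% of all tested genes. At day 2 it had 3 higher and 11 lower in GMT, beside 33.9% and 33.1% of all tested genes.

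Markers of other cell types moved beside the 40 genes. The 19 macrophage markers were all higher in mock at day 7 than at day 2. They summed to 478 to 698 CPM at day 7 and 78.5 to 81.3 CPM at day 2. The summed level of the 12 fibroblast markers at day 7 was 15597 to 16488 CPM in AGHMT, 12615 to 14462 CPM in GHMT and 7870 to 8339 CPM in GMT, against 72361 to 78357 CPM in mock. The 10 adipocyte markers summed to 74.5 to 79.0 CPM in AGHMT, 70.4 to 74.6 CPM in GHMT and 81.2 to 85.6 CPM in GMT, against 38.9 to 43.8 CPM in mock. The 11 neural and glial markers summed to 260.4 to 263 CPM in AGHMT, 231 to 242 CPM in GHMT and 137 to 155 CPM in GMT, against 121 to 128 CPM in mock. Tubb3 alone averaged 212 CPM in GHMT, 107 CPM in GMT and 33.7 CPM in mock. Of the 10 tested neural and glial markers, 4 were higher and 4 lower in AGHMT (all tested genes 38.6% higher and 38.1% lower). The 10 endothelial markers summed to 13.6 to 13.8 CPM in AGHMT, 6.36 to 7.71 CPM in GHMT and 9.42 to 10.1 CPM in GMT, against 14.4 to 14.9 CPM in mock. The 13 skeletal muscle markers summed to 927 to 989 CPM in AGHMT, 64.0 to 73.2 CPM in GHMT and 76.2 to 79.5 CPM in GMT, against 25.0 to 28.4 CPM in mock. Myl1, Acta1 and Tnnt3 made up most of the AGHMT sum, while Ckm, the creatine kinase of mature muscle, averaged 0.042 CPM there. The part of these cell types in the levels of the 40 genes was not tested.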

How the data were processed

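Total RNA was taken from MEFs at day 7 or day 2, with 3 libraries in each of 8 groups named by the labels. The authors deposited raw read counts per gene, in whole numbers. Per the submitters' processing notes, trimming used Trim Galore 0.4.1 and the tools also included DESeq2 1.6.3, featureCounts 1.4.6 and the aligner HISAT2 2.0.1, with the build GRCm38. For the annotation release and strand setting nothing is given in the sources used here, and 13 members share exonic bases with another gene. A deposited table of log-scale values was not used.

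Counts were scaled with TMM and tested with edgeR 4.0.16 (quasi-likelihood F test, R 4.3.3) after filterByExpr, over 17576 genes and all 24 libraries with 1 mean per group, two-sided, with Benjamini-Hochberg adjustment at 0.05. Libraries held 29345957 to 37495178 counts, and no 2 replicates agreed within sampling noise (lowest chi-square per degree of freedom 1.54). Lengths for isoform shares are exon unions of GENCODE M21 on GRCm38, and shares carry no test. Members, pathway lists, marker lists and tests were chosen with earlier results of these data known. Every day 7 library's level is given for members called at 2-fold or more against mock at day 7 with at least 5 CPM in the higher group. The same holds for the main isoforms of each step. Day 2 levels by library are given for only some of these genes. From each pathway list the up to 4 genes with the smallest adjusted p in AGHMT at day 7 are named. In the glycogen list 1 gene that this rule names is not reported here. Alternatives were DESeq2 1.42.0, RLE factors, no filter, compared libraries only, each library left out, the replicate block and other lengths. The code was checked on simulated counts.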

Additional observations from a re-analysis of the deposited data

Results flagged for a closer look

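The difference between a cocktail and the mock of its day was not the same at day 7 and day 2 for many of the 40 genes, by edgeR's test of the day difference itself. The values below are the log2 fold change against mock at day 7 minus that at day 2, for genes that passed an adjusted p of 0.05 with a size of at least 1. A positive value means that the cocktail stood higher against mock at day 7 than at day 2. All 3 cocktails are set against the same mock libraries, in which 24 of the 40 genes were lower at day 7 than at day 2.

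In AGHMT the positive values were 2.91 for Hk2, 2.76 for Pygm, 2.51 for Slc16a3, 1.83 for Pfkp, 1.58 for Pgk1, 1.54 for Pfkl, 1.49 for Pdk1, 1.42 for Slc2a1, 1.37 for Tpi1, 1.36 for Eno1, 1.2 for Gapdh, 1.15 for Pkm, 1.14 for Ldha, 1.06 for Slc16a1, 1.05 for Pygl, 1.01 for Aldoa and 1.00 for Pgam1. The negative ones were -1.80 for Ppp1r3c, -1.64 for Slc2a4 and -1.0 for Pygb. For the genes of the common steps, such as Tpi1, Gapdh and Pgk1, mock cells had lower levels at day 7 than at day 2.

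In GHMT the positive values were 2.16 for Hk2, 2.12 for Pygm, 1.58 for Slc2a1, 1.23 for Slc16a3, 1.14 for Eno3, 1.06 for Eno1, 1.05 for Pgam2 and 1.05 for Pkm. The negative ones were -2.15 for Ppp1r3c, -1.37 for Pygb and -1.03 for Slc2a4. Ppp1r3c, Pygb and Slc2a4 all had higher mean levels in mock at day 7 than at day 2.

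In GMT the positive values were 2.69 for Slc16a3, 2.05 for Eno3, 1.84 for Hk2, 1.57 for Slc2a1, 1.52 for Pgam2, 1.42 for Eno1, 1.42 for Pgk1, 1.37 for Gapdh, 1.33 for Pygl, 1.27 for Aldoa, 1.19 for Pkm, 1.19 for Hk1, 1.14 for Pfkp, 1.14 for Pfkfb4, 1.11 for Tpi1, 1.03 for Pfkl and 1.01 for Pdk1. The negative one was -1.53 for Ppp1r3c. Eno3 and Pgam2, both muscle isoforms, belong to the GMT values above 1.5, and both were higher in GMT at day 7 than at day 2.

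A further 10 genes in AGHMT, 23 in GHMT and 13 in GMT passed with a day difference under 1. Whether the fall of glycolytic genes in mock, its rise in macrophage markers or the cocktail itself sets these values was not tested.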

How the results depend on the processing

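The counts of members called higher or lower kept within 1.5 times when DESeq2 replaced edgeR, when RLE replaced TMM, when low-count genes stayed in, when the fit held only the groups compared and when any 1 library was left out. The same held without the 3 libraries that stood apart, a choice made after seeing the data. Of 478 calls among 560 pairs of gene and comparison, 27 were lost and 20 others gained under at least 1 alternative, and 0 changed sign. The lost calls were small changes, such as Pfkm, Phka1 and Pfkp in GHMT against GMT at day 7, Pfkfb1 in GHMT against mock at day 2 and Aldoc and Pfkfb2 in mock between the days. Their cause was not tested.

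Same-numbered libraries correlated at -0.0417 to 0.274 over 33 pairs, with 1 above 0.1, so the numbers were not taken to pair the libraries. With the replicate number as a block, 34 members were higher and 5 lower in AGHMT than in mock at day 7, and in all comparisons 4 calls were lost and 2 gained.

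Isoform shares depend on gene length, as given for Eno3, Pgam2, Pfkm and Ldhb beside their values. The share in AGHMT minus that in mock at day 7, in percentage points, was with the longest transcript as length 10.9 for Hk2 (14.8 as reported), 0.224 for Aldoa (0.358), 78.4 for Pgam2 (79.3), 4.57 for Eno3 (9.39), 28.6 for Ldhb (34.5), 4.95 for Pdk4 (6.47) and 30.5 for Pygm (32.9). With no length correction it was 12.6 for Hk2, 7.49 for Pfkm (10.1 as reported), -11.0 for Pfkfb2 (-8.93), 67.6 for Pgam2, 3.65 for Eno3, 23.7 for Ldhb, 3.23 for Pdk4 and 24.6 for Pygm. The other length is the cause by construction, and each of these differences kept its direction. Leaving out 1 library gave 79.2 to 79.6 for Pgam2 and 32.4 to 33.3 for Pygm. Depth limits Phkg1 and Pygm in mock, and Slc2a4 in mock at day 2, which rest on few reads.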
